A study of Mus musculus with 12 samples.

Results

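A set of 9 potassium channel genes was followed in the dorsal root ganglia of injured and sham-operated mice. They were chosen by symbol (Kcnk1, Kcnk2, Kcnk18, Kcnq3, Kcnd1, Kcnd3, Kcnh2, Kcnn1 and Kcnt1) and make up 9 of the 23238 distinct symbols in the count files. Of the 9 genes, 8 had enough counts to be tested among 15036 tested genes, and Kcnd3 did not. Levels are given as CPM, a gene's count scaled to a common library size with factors from the trimmed mean of M values (TMM). Changes are log2 ratios of SNI over sham with the standard error (SE) of the model, and a gene was called when its p-value, adjusted over all tested genes by the Benjamini-Hochberg method, was below 0.05.

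The ganglia came from lumbar levels 3 to 5 of C57BL/6 mice aged 8 weeks, in 4 groups of 3 libraries: Female SNI, Female sham, Male SNI and Male sham, where SNI stands for sciatic nerve injury. The series set regeneration of injured axons in males beside that in females. No transgene or drug is named for any group. The kind of lesion, the time from operation to dissection and the number of animals behind a library were not named in the labels. A p-value here therefore speaks of spread among the libraries, part of which may be technical rather than between animals. The libraries were read from the 3′ ends of polyadenylated RNA.

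Potassium channels let potassium leave the cell, which holds the membrane near its resting potential and ends the action potential. Two-pore (K2P) channels carry the leak current at rest, and channels made of KCNQ subunits carry the M-current, a slow brake on repeated firing. Kv4 channels give the fast A-type current that delays a spike. ERG channels shape repolarization, SK channels open with intracellular calcium and Slack channels open with intracellular sodium. In sensory neurons these currents together set how easily a stimulus becomes a train of spikes.

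Total counts lay between 12476606 and 15520746 per library, so that 3 counts in a library correspond to 0.191 to 0.244 CPM, a floor for counting error only. Atf3, a transcription factor induced by axon damage, was at 275 to 361 CPM in the 6 SNI libraries and at 43.6 to 56.7 CPM in the 6 sham libraries, so no library went against its injury label. All 10 pan-neuronal markers had counts in every library, with a summed level of 15517 to 21223 CPM. The central nervous system glia markers Mog, Opalin and Mobp were at 0 in at least 1 library of every group, and the 4 genes of that list summed to 3.15 to 7.19 CPM. Male SNI replicate 2 and Female sham replicate 2 stood apart from the rest on the first principal component, which held 27.2% of the variance of log2 CPM, with scores of 99.9 and 47.5 against -32.8 to 0.963 in the other 10 libraries. Counts of called genes are given with and without these libraries, and refits of single genes only where they are named.

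Promoter sequence is shown for the K2P genes, whose levels are the first result below. RefSeq (GRCm38.p6) gave 10 windows for 6 of the 9 genes. The windows below hold the 250 bases before an annotated start, 5′ to 3′ on the gene's strand, at chr8:125994852-125995101 (plus strand) for Kcnk1, chr19:59219398-59219647 (plus strand) for Kcnk18, and chr1:189344193-189344442 (minus strand) for the single one of 4 Kcnk2 windows that holds an AP-1 site. The Kcnk1 and Kcnk2 windows precede starts that lie inside the gene's full annotated span, and the Kcnk18 window precedes the span itself. Capitals mark matches, on either strand, to an AP-1 site (TGANTCA), a cAMP response element (TGACGTCA), a GC box (GGGCGG) or the right arm of RE1, the site of the repressor REST (GGACAG).
Kcnk1: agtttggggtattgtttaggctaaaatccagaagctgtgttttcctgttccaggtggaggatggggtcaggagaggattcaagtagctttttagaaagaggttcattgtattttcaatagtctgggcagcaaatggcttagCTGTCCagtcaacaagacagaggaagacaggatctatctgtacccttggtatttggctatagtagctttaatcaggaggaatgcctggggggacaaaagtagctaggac
Kcnk18: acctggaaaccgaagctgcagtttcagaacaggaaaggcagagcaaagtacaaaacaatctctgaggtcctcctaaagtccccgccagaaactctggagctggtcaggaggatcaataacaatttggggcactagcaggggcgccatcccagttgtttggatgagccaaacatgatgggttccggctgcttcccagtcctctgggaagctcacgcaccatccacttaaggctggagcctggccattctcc
Kcnk2: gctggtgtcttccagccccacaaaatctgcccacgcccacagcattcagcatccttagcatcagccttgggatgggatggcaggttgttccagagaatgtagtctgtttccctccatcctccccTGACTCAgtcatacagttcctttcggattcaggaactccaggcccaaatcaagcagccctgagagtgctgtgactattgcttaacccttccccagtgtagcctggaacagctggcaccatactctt
The Kcnk1 window held 1 RE1 right arm and the Kcnk18 window held no match. The AP-1 site stood in 1 of the 10 windows and in 6.75% of all 32851 RefSeq windows of the same length, the RE1 right arm in 5 of 10 and in 18.7%, the GC box in 3 of 10 and in 32.7%, and the cAMP response element in 0 of 10 and in 1.55%. These matches are letters in a window, and binding was not measured.

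Injury averaged over the sexes lowered 1 of the 8 tested genes, Kcnk1, and raised none, in a comparison that called 6.52% of all tested genes (980 of 15036, edgeR's quasi-likelihood test). Decreases alone were called for 2.73% of the tested genes. The estimate was below 0 for 7 of the 8 genes, with a median log2 change of -0.32, beside 0.0031 over all tested genes. Unadjusted p-values were below 0.05 and the change negative for 4 of the 8 (Kcnk1, Kcnk18, Kcnd1 and Kcnt1), against 8.61% of all tested genes. The 7 negative estimates lay between -0.54 and -0.31 on the log2 scale.

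**Figure D1:**
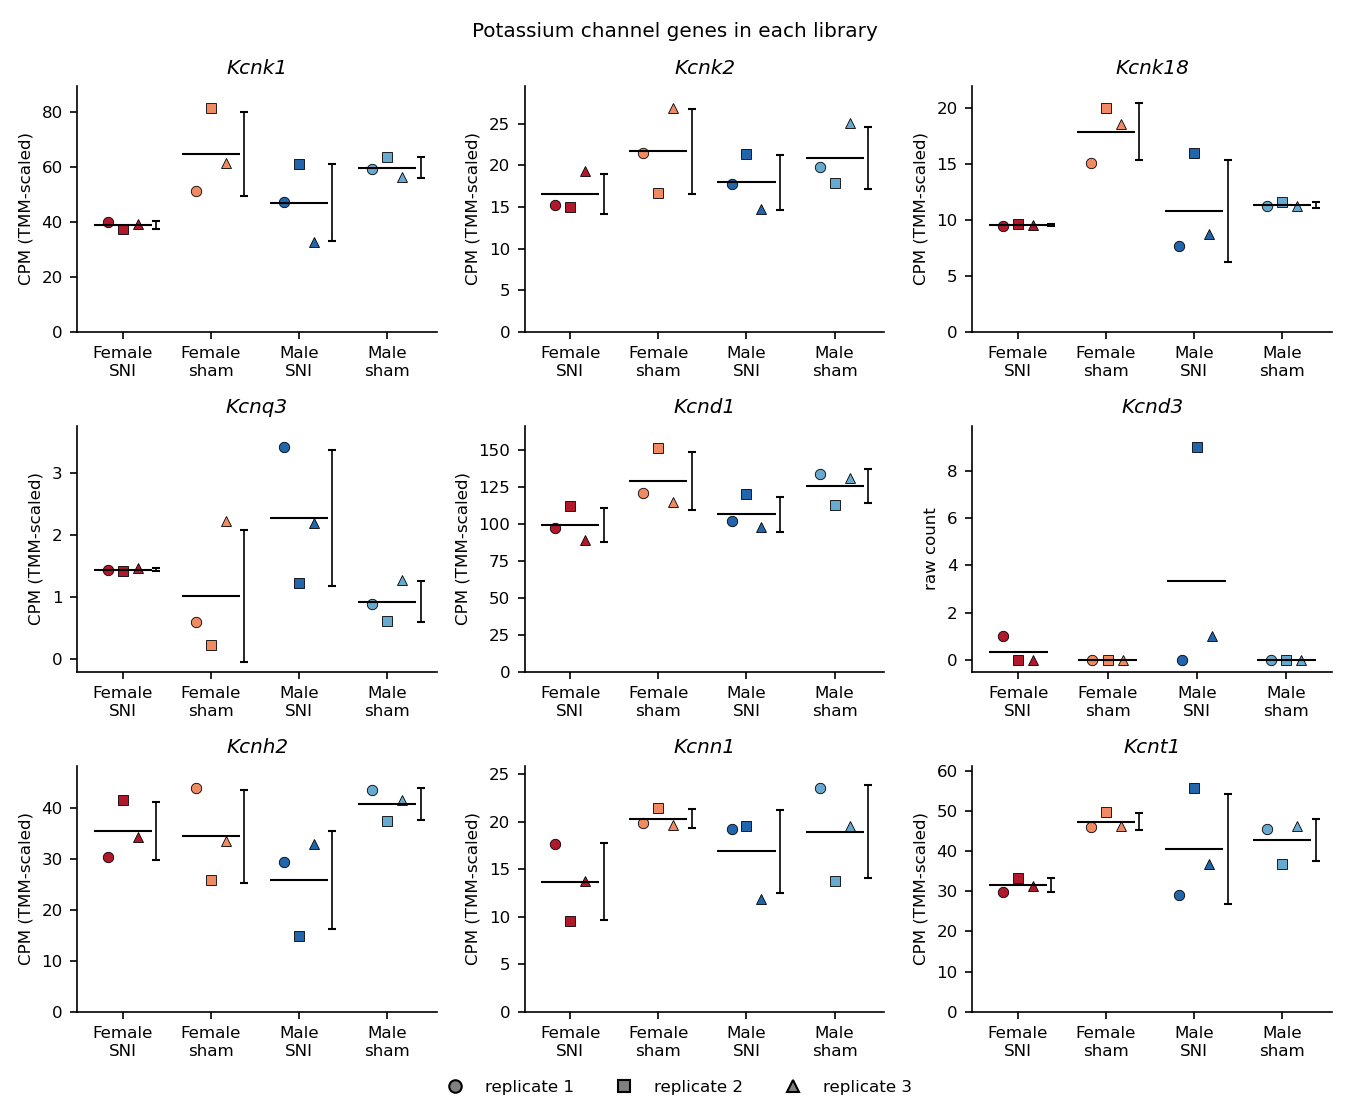
Level of the 9 potassium channel genes in each of the 12 libraries, as TMM-scaled CPM (raw counts for Kcnd3). Points are libraries, shaped by replicate number, horizontal lines are group means and bars are the SD of 3 libraries (none for Kcnd3). The 3 Female SNI points lie below the 3 Female sham points for Kcnk1, Kcnk18, Kcnd1, Kcnn1 and Kcnt1, and the square of Male SNI replicate 2 lies above the other Male SNI points for the same genes.

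Among the K2P genes, Kcnk1 encodes TWIK-1, a weakly conducting leak channel. The gene (chromosome 8, 125993655 to 126030685, plus strand, GRCm38) was at 40.1, 37.5 and 39.1 CPM in the Female SNI libraries, against 51.2, 81.3 and 61.6 CPM in the Female sham libraries. In males it was at 47.2, 61.1 and 32.8 CPM after SNI, against 59.4, 63.7 and 56.2 CPM after sham. The female groups did not overlap, while Male SNI replicate 2 lay within the male sham range. Averaged over the sexes Kcnk1 was lower by a log2 change of -0.54 ± 0.15 (SE; 0.688-fold; adjusted p = 0.0435). The call is close to the threshold: of the 12 fits that left out 1 library it held in 2, those lacking Female sham replicate 1 (adjusted p = 0.0296) or Male SNI replicate 2 (adjusted p = 0.00195), while the estimate stayed between -0.65 and -0.44. It had adjusted p = 0.0904, 0.103 and 0.0966 without Female SNI replicates 1, 2 and 3, and adjusted p = 0.104 and 0.0775 without Female sham replicates 2 and 3. Without Male SNI replicates 1 and 3 it had adjusted p = 0.0821 and 0.0559, and without Male sham replicates 1, 2 and 3 it had adjusted p = 0.0951, 0.0995 and 0.0758. Exons of Kcnk1 overlap 179 bases of Gm45875 on the opposite strand, outside the last 300 exonic bases that a 3′ library mostly reads.

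Kcnk18 encodes TRESK, a leak channel that calcium activates through calcineurin and that nociceptors express. It was at 9.43, 9.65 and 9.55 CPM in the Female SNI libraries, against 15.1, 19.97 and 18.6 CPM in the Female sham libraries. The Male SNI libraries had 7.64, 16.0 and 8.76 CPM, against 11.2, 11.6 and 11.2 CPM in Male sham. The female groups did not overlap, with 9.54 ± 0.112 CPM after SNI and 17.9 ± 2.53 CPM after sham (SD, n = 3 each). An SD of 3 libraries is a poor measure of spread, and the test used the SE of the model. In males the single high library, Male SNI replicate 2, lay above all sham values. The log2 change was -0.90 ± 0.26 in females (SE; adjusted p = 0.0844) and -0.07 ± 0.26 in males (adjusted p = 0.932). Averaged over the sexes it was -0.49 ± 0.18 (adjusted p = 0.146), and it was -0.68 ± 0.15 without Male SNI replicate 2 (adjusted p = 0.00485). That fit, which left out the highest SNI value, was the only 1 of 12 leaving out 1 library that called Kcnk18. The estimates of the 12 fits ran from -0.68 to -0.39.

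Kcnk2 encodes TREK-1, a leak channel opened by stretch, warmth and lipids. It was at 15.2, 15.0 and 19.3 CPM in Female SNI against 21.4, 16.7 and 26.8 CPM in Female sham, and at 17.7, 21.4 and 14.8 CPM in Male SNI against 19.7, 17.9 and 25.0 CPM in Male sham. The groups overlapped in both sexes. The averaged change was -0.31 ± 0.16 with a 95% interval of -0.64 to 0.03, so that neither no change nor a decrease of the size seen in Kcnk1 lies outside it (adjusted p = 0.334).

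Kcnq3 encodes a subunit of the M-channel and was sparsely counted, with 3 to 42 counts per library. It was at 1.43, 1.43 and 1.47 CPM in Female SNI against 0.599, 0.227 and 2.22 CPM in Female sham. In males it was at 3.41, 1.23 and 2.19 CPM after SNI against 0.891, 0.612 and 1.27 CPM after sham. Its estimate, 0.89 ± 0.51, was the single positive one among the 8 tested genes and had a 95% interval of -0.21 to 1.99 (adjusted p = 0.407). Female sham replicate 3 alone held 33 of the 44 counts of its group, and without it the averaged change was 1.53, still not called.

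The Kv4 genes carry the A-type current. Kcnd1, the X-linked gene of Kv4.1 (chromosome X, 7823759 to 7838278, plus strand), was at 97.1, 111.8 and 89.2 CPM in Female SNI, against 121.0, 150.9 and 114.4 CPM in Female sham. The Male SNI libraries had 101.7, 119.7 and 97.6 CPM, against 133.4, 112.4 and 131.0 CPM in Male sham. Female groups did not overlap, and in males Male SNI replicate 2 again lay inside the sham range. The averaged change was -0.31 ± 0.10 (95% interval -0.52 to -0.09; adjusted p = 0.098), with -0.37 ± 0.14 in females and -0.24 ± 0.14 in males. Between the sexes in sham ganglia, the difference of this X-linked gene (males minus females) was -0.04 with a 95% interval of -0.34 to 0.27.

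Kcnd3, the gene of Kv4.3, was close to absent from these counts. It had 1, 0 and 0 counts in Female SNI, 0 in each Female sham library, 0, 9 and 1 counts in Male SNI and 0 in each Male sham library. Male SNI replicate 2 held 9 of the 11 counts. No fold is given, since the gene did not pass the filter and no other library had more than 1 count. A library with 0 counts allows a level of up to about 0.244 CPM at this depth.

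Kcnh2 encodes an ERG channel. It was at 30.4, 41.7 and 34.4 CPM in Female SNI, against 43.9, 25.8 and 33.6 CPM in Female sham. In males it was at 29.5, 14.9 and 32.995 CPM after SNI, against 43.5, 37.4 and 41.6 CPM after sham. Kcnh2 was the single member whose male groups did not overlap, with a change of -0.66 ± 0.26 in males (adjusted p = 0.258) and 0.04 ± 0.26 in females (adjusted p = 0.961). Male SNI replicate 2 held the lowest value of all 12 libraries, and without it the change in males was -0.38 ± 0.20. Female sham replicate 2 was likewise the lowest of the sham libraries.

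Channels gated by intracellular ions were Kcnn1, the gene of the SK1 calcium-activated channel, and Kcnt1, the gene of the sodium-activated Slack channel. Kcnt1 was at 29.8, 33.4 and 31.4 CPM in Female SNI, against 46.1, 49.7 and 46.4 CPM in Female sham. In males it was at 29.1, 55.7 and 36.7 CPM after SNI, against 45.4, 36.7 and 46.2 CPM after sham. Female levels were 31.5 ± 1.77 CPM after SNI and 47.4 ± 2.01 CPM after sham (SD, n = 3 each), without overlap, and Male SNI replicate 2 held the highest value of all 12 libraries. The log2 change was -0.59 ± 0.20 in females (adjusted p = 0.159), -0.08 ± 0.20 in males (adjusted p = 0.898) and -0.33 ± 0.14 averaged over the sexes (adjusted p = 0.218). Without Male SNI replicate 2 the averaged change was -0.48 ± 0.11 (adjusted p = 0.00589). That fit, which left out the highest value, was the only 1 of 12 leaving out 1 library that called Kcnt1. The estimates of the 12 fits ran from -0.48 to -0.24.

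Kcnn1 was at 17.7, 9.58 and 13.7 CPM in Female SNI, against 19.9, 21.5 and 19.7 CPM in Female sham. The Male SNI libraries had 19.3, 19.6 and 11.8 CPM, against 23.5, 13.8 and 19.5 CPM in Male sham. The female groups did not overlap and the male groups did. The averaged change was -0.37 ± 0.19 with a 95% interval of -0.78 to 0.04 (adjusted p = 0.33).

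**Figure D2:**
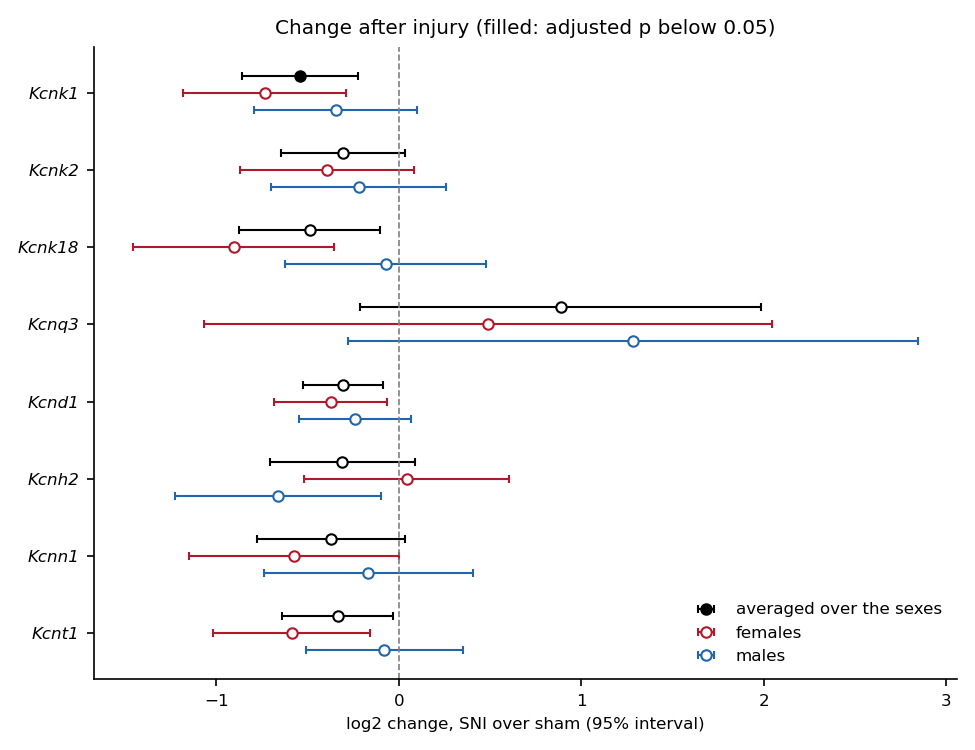
Log2 change of the 8 tested genes, SNI over sham, averaged over the sexes (black), in females (red) and in males (blue), with 95% intervals of the model; filled points had an adjusted p below 0.05. Only the averaged change of Kcnk1 is filled, and the female points lie left of the male points for 7 of the 8 genes, the exception being Kcnh2.

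In females alone, 0 of the 8 genes were called, in a comparison that called 2.89% of the tested genes, and 4 of the 8 (Kcnk1, Kcnk18, Kcnd1 and Kcnt1) had an unadjusted p below 0.05 with a decrease, against 7.88% of all tested genes. DESeq2 called 2 of the 8 lower in females, Kcnk1 and Kcnk18, against 2.16% of the genes to which it gave an adjusted p. The 3 Female SNI libraries all lay below the 3 Female sham libraries for 5 of the 8 genes (Kcnk1, Kcnk18, Kcnd1, Kcnn1 and Kcnt1), against 13.4% of all tested genes. In males 0 of the 8 were called, where 2.13% of the tested genes were. Kcnh2 had an unadjusted p below 0.05 (1 of the 8, against 5.55% of all tested genes lower at that threshold), and DESeq2 called 0 in males. The groups did not overlap for 1 of the 8 genes in males, against 8.83% of all tested genes.

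The difference between the sexes was tested directly as an interaction (male change minus female change), which called 0 of 15036 genes (0.00%) with edgeR. DESeq2 and limma also called 0 genes. At an unadjusted p below 0.05 it held 1100 genes (7.32%), among them 1 of the 8, Kcnk18, at 0.83 ± 0.36 (edgeR, adjusted p = 0.647). Without Male SNI replicate 2 the interaction of Kcnk18 was 0.43 ± 0.29. The interactions of Kcnh2 and Kcnt1 were -0.70 ± 0.37 and 0.51 ± 0.28, and without that library -0.43 ± 0.27 and 0.20 ± 0.21. In sham ganglia none of the 8 genes differed between males and females at an adjusted p below 0.05, where 6 genes in all did (0.0399%). Kcnk18 had 11.3 ± 0.244 CPM in Male sham and 17.9 ± 2.53 CPM in Female sham (SD, n = 3 each), a difference of -0.66 ± 0.25 (edgeR, adjusted p = 0.938), and it was the 1 of the 8 below 0.05 before adjustment, against 4.57% of all tested genes.

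Male SNI replicate 2 weighed on most of these genes. Of the 6 SNI libraries it had the highest level of 6 genes (Kcnk1, Kcnk2, Kcnk18, Kcnd1, Kcnn1 and Kcnt1) and the lowest level of the other 2 (Kcnq3 and Kcnh2). Female sham replicate 2, the other library that stood apart, had the highest level of the 6 sham libraries for Kcnk1, Kcnk18, Kcnd1 and Kcnt1 and the lowest for Kcnk2, Kcnq3 and Kcnh2. Relative to each gene's mean over the 12 libraries, the median of the 8 genes was 0.19 in Male SNI replicate 2 and -0.30 to -0.13 in the other 5 SNI libraries, while in sham libraries it was 0.20 to 0.33 except for Male sham replicate 2 at -0.052. Without Male SNI replicate 2, the remaining 5 SNI libraries lay below all 6 sham libraries for 4 of the 8 genes (Kcnk1, Kcnk18, Kcnd1 and Kcnt1), against 4.28% of all tested genes. That library held the highest SNI value of these 4 genes, so leaving it out could only move them toward such a gap. The share of all tested genes is not restricted in this way, so the 2 figures are a description and no test of a decrease. For Kcnt1 and Kcnd1 that gap was narrow, with 36.69 CPM as the highest SNI value against 36.73 CPM as the lowest sham value of Kcnt1, and 111.8 against 112.4 CPM for Kcnd1.

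**Figure D3:**
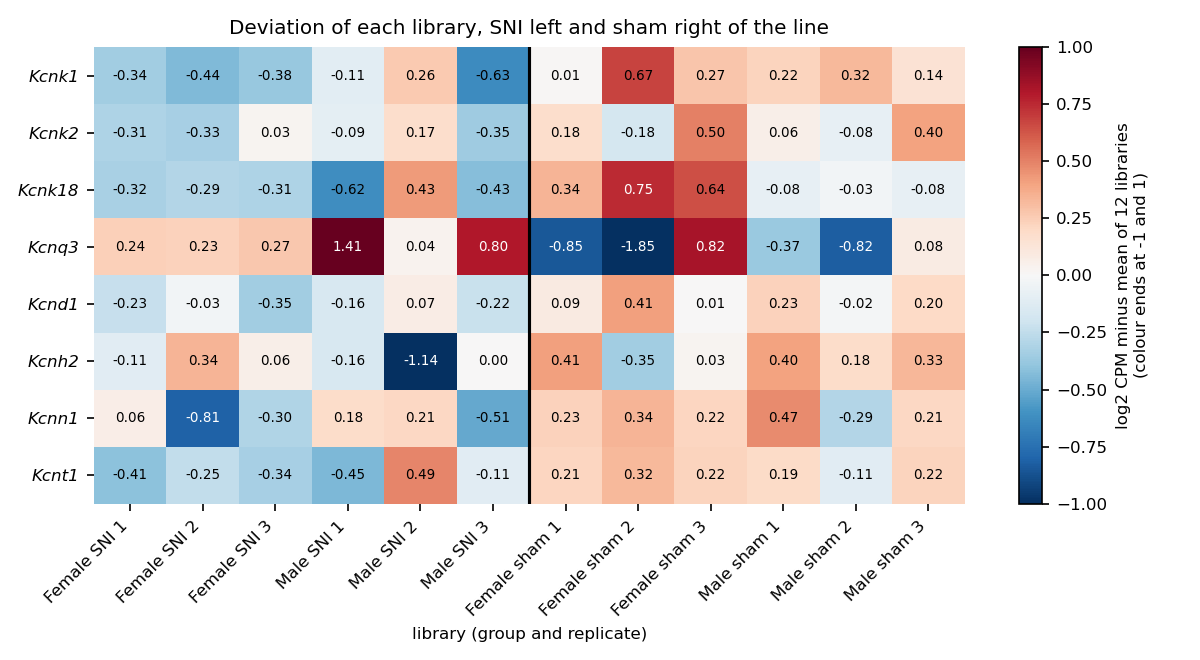
Log2 CPM of each library minus the mean of the 12 libraries, for the 8 tested genes (rows) and 12 libraries (columns, SNI left and sham right of the line). The column of Male SNI replicate 2 is mostly positive, with Kcnh2 at -1.14 in it, and so are the sham columns except that of Male sham replicate 2.

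Of the 12 fits that left out 1 library, the one without Male SNI replicate 2 called the most of the 8 genes for injury averaged over the sexes. Without it 4 of the 8 were called, all lower (Kcnk1, Kcnk18, Kcnd1 and Kcnt1), against 5.30% of the tested genes. Each of these 4 had its highest SNI level in the library left out, so this fit was bound to lower their SNI means. In females it was 3 of the 8 (Kcnk1, Kcnk18 and Kcnt1), against 3.73%. Without Female sham replicate 2 alone, 0 of the 8 were called averaged over the sexes, where 782 of 15400 tested genes were. In females that fit also called 0 of the 8, where 217 genes were called. Without both libraries, 5 of the 8 were called lower averaged over the sexes, against 5.40% of the tested genes. The fifth was Kcnk2 at -0.45 ± 0.15 (adjusted p = 0.0488). In that fit of 10 libraries the changes of Kcnk1 were -0.53 ± 0.15 in females and -0.57 ± 0.16 in males, with adjusted p = 0.0391 and 0.0374. It was then 1 of 3 called in females, beside Kcnk18 and Kcnt1, against 3.13% of the tested genes, and the 1 called in males, against 1.69%. With limma's sample quality weights, which gave Male SNI replicate 2 a weight of 0.168, 4 of the 8 were called lower averaged over the sexes, against 6.54% of the tested genes, and 3 in females, against 5.37%. Kcnh2, Kcnn1 and Kcnq3 were not called in any of these fits.

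**Figure D4:**
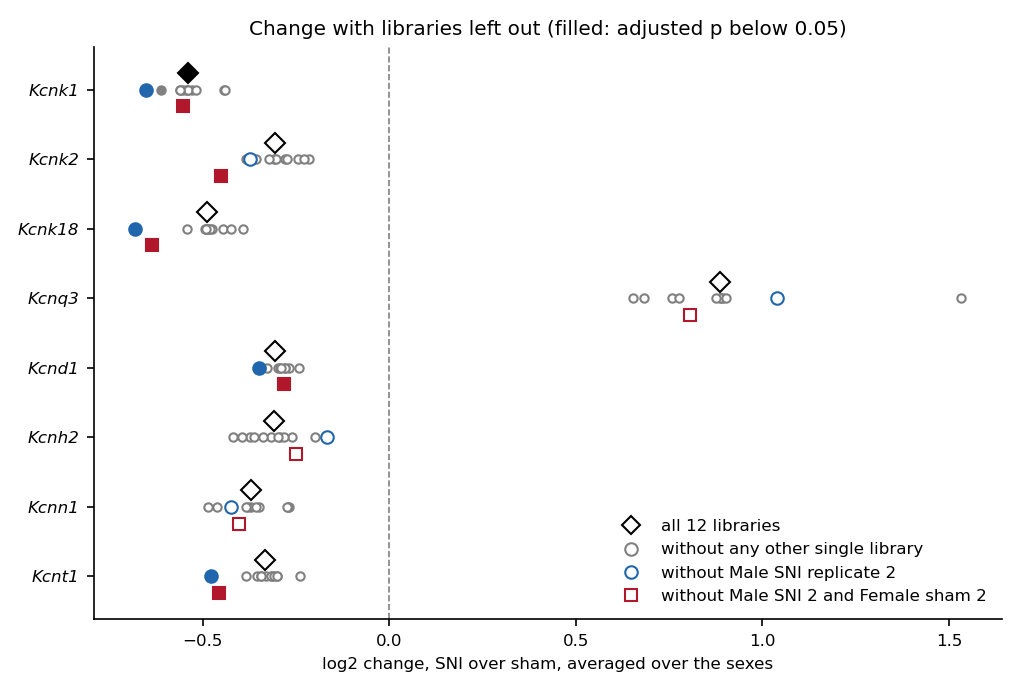
Log2 change of the 8 tested genes averaged over the sexes with all 12 libraries (black diamonds), without Male SNI replicate 2 (blue circles), without any other single library (grey circles) and without Male SNI replicate 2 and Female sham replicate 2 (red squares); filled symbols had an adjusted p below 0.05. The 7 genes with a negative estimate stayed negative in each of these fits, and the filled symbols besides those of Kcnk1 belong to fits without Male SNI replicate 2.

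Markers of some cell types moved with injury averaged over the sexes, where 2.73% of all tested genes were called lower and 3.78% higher. None of 7 myelinating Schwann cell, 5 endothelial and 5 fibroblast markers was called, and of 7 satellite glia markers 1 rose. The pan-neuronal list summed to 15517 to 16334 CPM in Female SNI against 17909 to 21223 CPM in Female sham, and to 16338 to 21101 CPM in Male SNI against 17124 to 19234 CPM in Male sham, with 1 of its 10 members rising and 2 falling. Among nociceptor markers the decreases numbered 5 of 10, with no increase, and sums of 2135 to 2453 CPM in Female SNI against 2784 to 3150 CPM in Female sham, and of 2169 to 2497 CPM in Male SNI against 2859 to 3063 CPM in Male sham. For mechanoreceptors and proprioceptors 6 of the 10 markers decreased, with no increase, and sums of 2930 to 3063 CPM in Female SNI against 3838 to 5061 CPM in Female sham, and of 2918 to 4200 CPM in Male SNI against 4455 to 4736 CPM in Male sham. Of 9 macrophage markers 8 rose, with sums of 261 to 440 CPM in the SNI libraries against 115 to 184 CPM in the sham libraries. Male SNI replicate 2 had the highest sums of the SNI libraries for pan-neuronal markers, for mechanoreceptor and proprioceptor markers, for macrophage markers and for satellite glia markers. The last were at 8235 CPM against 4955 to 5586 CPM in the other SNI libraries. A list of 6 injury transcripts, Atf3 among them, was also highest there, at 4865 CPM against 3465 to 4031 CPM. Its sums of fibroblast and myelinating Schwann cell markers were the lowest of the SNI libraries. Female sham replicate 2 likewise had the highest sums of the sham libraries for the same cell types and for the injury transcripts. For satellite glia the margin was small, at 5824 CPM against 5812 CPM in Female sham replicate 3. The fibroblast and myelinating Schwann cell sums of Female sham replicate 2 were the lowest of the sham libraries. The 5 skeletal muscle markers summed to 1186 CPM in Male SNI replicate 1, against 5.19 to 58.3 CPM in the other 11 libraries, and none of the 5 was called. The part of these markers in the channel results was not tested. In bulk ganglia, fewer cells of a type and less RNA per cell cannot be told apart.

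By the pattern over the 12 libraries, the genes most like Kcnk1 among 10856 genes with a mean of at least 5 CPM were Pcdh9, with a Pearson r of 0.976, and Tesc, with r = 0.971. The 12 points share their libraries and depth, so these values are a description. Tesc also fell after injury, by 0.77 on the log2 scale (adjusted p = 0.0198), and Pcdh9 was at -0.32 (adjusted p = 0.121).

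Related potassium channel genes were read beside the 9. Of 43 listed relatives 34 were tested, and for injury averaged over the sexes 6 fell and 1 rose, where 6.52% of all tested genes were called, with a median log2 change of -0.098. The auxiliary subunits of Kv4 channels held 4 of the 6 decreases. All 7 tested members of that list (Kcnd2, 4 cytosolic KChIP subunits and 2 membrane-spanning DPP subunits) had negative averaged estimates. Their median was -0.70, and 4 fell, against 2.73% of all tested genes. In males 6 of the 7 were negative, the exception being Kcnd2, at 0.21 ± 0.46 against -1.73 ± 0.49 in females. Kcnd2 was sparsely counted, with group means of 1.15 to 3.84 CPM. Neither change was called (edgeR, adjusted p = 0.88 in males and 0.0816 in females), nor was the interaction of Kcnd2 (adjusted p = 0.647).

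Kcnip1, the gene of a calcium-binding KChIP subunit, was at 49.8 ± 3.48 CPM in Female SNI and 89.0 ± 13.1 CPM in Female sham, and at 58.6 ± 10.7 CPM in Male SNI and 85.9 ± 8.64 CPM in Male sham (SD, n = 3 each). Its log2 change was -0.70 ± 0.11 (adjusted p = 0.00167). Dpp10, which speeds the gating of Kv4 channels, was at 36.1 ± 6.24 CPM in Female SNI and 59.5 ± 12.04 CPM in Female sham, and at 35.7 ± 10.03 CPM in Male SNI and 73.9 ± 6.87 CPM in Male sham. Its log2 change was -0.88 ± 0.15 (adjusted p = 0.00248). Both calls held in all 12 fits that left out 1 library, and the 6 SNI libraries of each gene lay below all 6 sham libraries, as for 2.04% of all tested genes, while none of the 8 genes did so.

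Dpp6, at -0.43 ± 0.12 (adjusted p = 0.0414), and Kcnip4, at -0.35 ± 0.09 (adjusted p = 0.0372), also fell, but their calls were less firm. Dpp6 passed in 2 of the 12 fits that left out 1 library, those lacking Male SNI replicate 2 or Male sham replicate 3. Its change was -0.71 ± 0.16 in females and -0.15 ± 0.16 in males. Kcnip4 passed in 3 of the 12, those without Male SNI replicate 1, 2 or 3. Its 6 SNI libraries also lay below all 6 sham libraries, with 83.1 CPM as the highest SNI value and 87.3 CPM as the lowest sham value. Those of Dpp6 overlapped in males. The 3 not called were Kcnd2 at -0.76 ± 0.33, Kcnip2 at -0.45 ± 0.16 and Kcnip3 at -0.76 ± 0.26, with adjusted p = 0.236, 0.127 and 0.11. Side by side, the pore gene Kcnd1 was at -0.31 ± 0.10 and not called.

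Subunits of the BK channel, which calcium and voltage open together, went in both directions. Kcnmb1, a beta subunit gene, was at 22.1 ± 0.36 CPM in Female SNI and 42.0 ± 5.34 CPM in Female sham, and at 27.1 ± 2.46 CPM in Male SNI and 42.2 ± 3.77 CPM in Male sham (SD, n = 3 each). Its log2 change was -0.78 ± 0.11 (adjusted p = 4e-04). Kcnmb4, the gene of another beta subunit, was at 46.2 ± 3.48 CPM in Female SNI and 27.3 ± 2.32 CPM in Female sham, and at 40.8 ± 3.42 CPM in Male SNI and 27.7 ± 2.23 CPM in Male sham. It rose by 0.66 ± 0.10 (adjusted p = 0.00113), the 1 relative that did. Both calls held in all 12 such fits, and all 6 SNI libraries of Kcnmb4 lay above all 6 sham libraries, as did those of 2.79% of all tested genes. All 6 SNI libraries of Kcnmb1 lay below all 6 sham libraries, as for 2.04% of all tested genes. The pore gene Kcnma1 was at -0.0032 ± 0.107 (95% interval -0.23 to 0.23). Kcnmb1 (chromosome 11, 33962955 to 33973641, plus strand) lies within the span of Kcnip1 (33629339 to 33993348, minus strand) without overlapping exons. Of the last 300 exonic bases of Kcnmb4, 109 overlap Kcnmb4os1 on the opposite strand, and how strand was counted is not given, so its value is uncertain.

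Among relatives of Kcnh2 1 of 5 tested fell, Kcnh7, an ERG gene, at -0.98 ± 0.22 (adjusted p = 0.0157). Without Male sham replicate 1 its change was -0.83 and was not called (adjusted p = 0.0536). The last 300 exonic bases of Kcnh7 lie within exons of Gca on the opposite strand, so its value is uncertain. None of 7 tested relatives of the K2P genes passed. Their averaged estimates lay mostly on the other side of 0 from those of Kcnk1, Kcnk2 and Kcnk18, with a median of 0.43 and Kcnk4 at 0.55 ± 0.21 (adjusted p = 0.161). The 1 negative estimate was that of Kcnk3, at -0.08 ± 0.16, with -0.68 ± 0.22 in females and 0.51 ± 0.22 in males. Neither was called (edgeR, adjusted p = 0.138 in females and 0.295 in males), nor was the interaction of Kcnk3 (adjusted p = 0.647). Its Male SNI libraries ran from 46.8 to 96.5 CPM, with a median of 56.9 CPM, against 42.1 to 52.4 CPM in Male sham. None of 6 tested KCNQ and KCNE relatives passed.

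**Figure D5:**
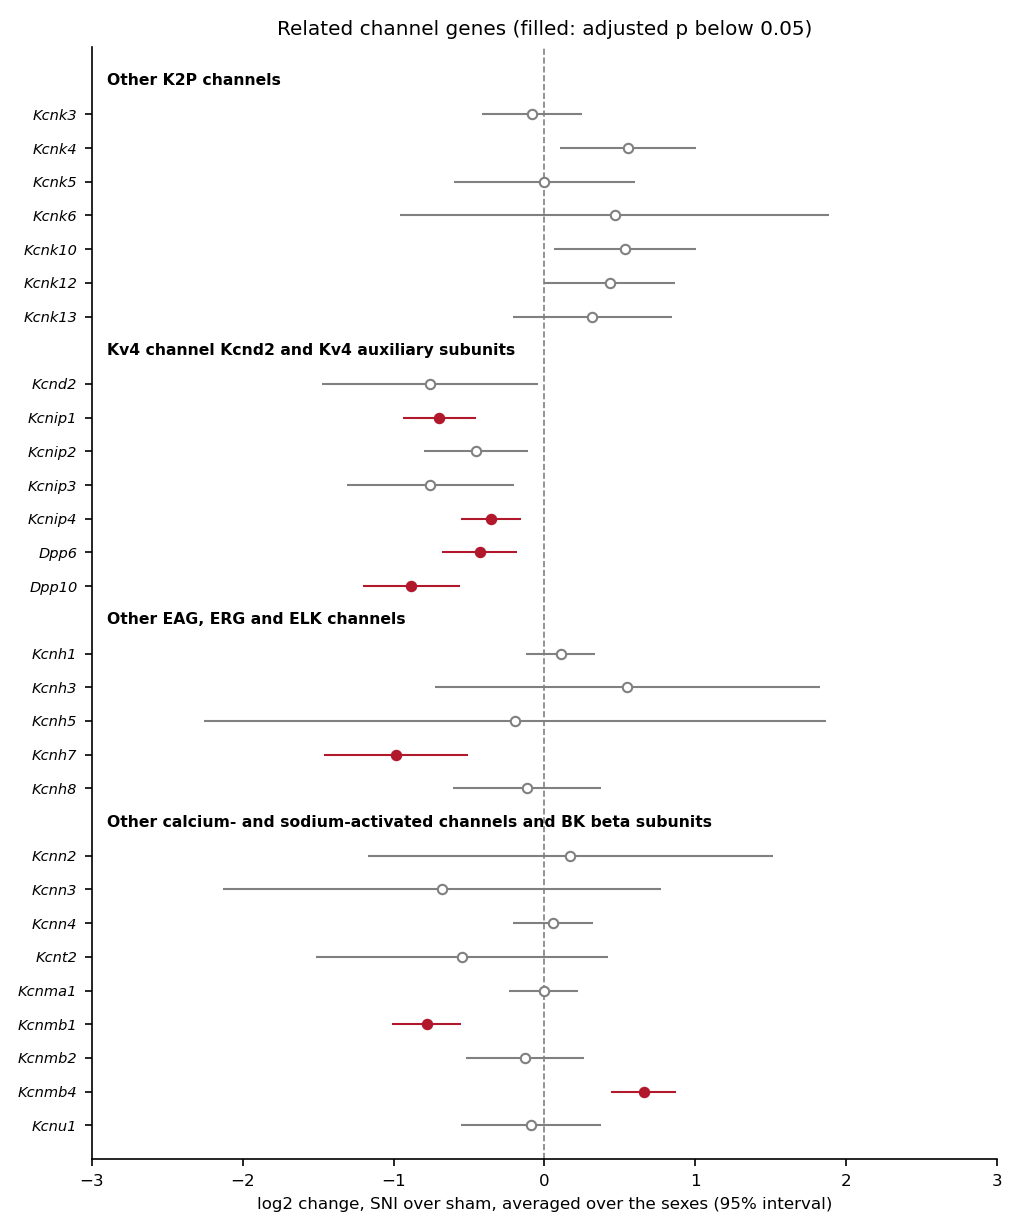
Log2 change of the tested relatives from the K2P, Kv4, ERG and calcium- or sodium-activated lists, SNI over sham averaged over the sexes, with 95% intervals of the model; filled points had an adjusted p below 0.05. The filled points are Kcnip1, Kcnip4, Dpp6, Dpp10, Kcnh7 and Kcnmb1 left of 0 and Kcnmb4 right of it.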

How the data were processed

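Raw counts per gene symbol were deposited by the authors, 1 file per library, per the file headers. Per the labels' protocols, libraries came from polyadenylated RNA with the QuantSeq 3′ kit and single reads. Bowtie2, bedtools and the build mm10 are listed, without versions, in the submitters' processing notes. No label or header describes how strand or multiply mapped reads were counted. Each file held 23282 rows, none without a name, and the 44 extra rows of 35 repeated symbols were summed.

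The filterByExpr filter (minimum count 10) kept 15036 genes. All 12 libraries entered 1 edgeR 4.0.16 model (R 4.3.3) with 4 group means, after TMM scaling (factors 0.914 to 1.07), and two-sided quasi-likelihood F tests were made for injury averaged over the sexes, in females and in males, the interaction and the sexes in sham. The SE is the log2 change over the square root of F, and 95% intervals use the model's degrees of freedom. The script was tested on simulated data. Replicates differed by a chi-square per gene of at least 8.63, so none looked deposited in duplicate. Alternatives used DESeq2 1.42.0 and limma 3.58.1. Gene positions and promoters are RefSeq GRCm38.p6, and exon overlaps are GENCODE vM21.

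The text names the 9 genes, the called ones among 43 relatives, Atf3 as the check of the labels, and the 2 genes with the highest Pearson correlation with each called member. The relatives Kcnd2, Kcnip2, Kcnip3, Kcnma1, Kcnk3 and Kcnk4, which were not called, were named after their values were seen. The members, lists and alternatives were chosen with earlier results of these data known.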

Additional observations from a re-analysis of the deposited data

How the results depend on the processing

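Of 948 recomputed log2 changes of single genes, 866 kept their direction and their side of the threshold, 33 lost the call, 26 gained it and 23 changed sign. Single-gene calls above rest on 3 libraries a group and, for Kcnk1, Kcnh7, Dpp6 and Kcnip4, lie near the threshold. Counts of 3 to 42 per library limit Kcnq3, and counts of 0 to 9 limit Kcnd3. RLE scaling, a minimum mean of 1 CPM and leaving out Rn45s left the count for injury averaged over the sexes at 1 of the 8 (Kcnk1). With no filter it was 1 of 9, since Kcnd3 was then tested too.

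For injury averaged over the sexes, 980 genes were called in all, against 2008 with limma's sample quality weights and 1848 without Male SNI replicate 2 and Female sham replicate 2. Of the 8 genes these called 4 and 5. With 1 library left out, 626 to 1766 of the 15348 to 15405 tested genes were called, and 0 to 4 of the 8. Of the relatives, 7 were called with all libraries and 4 to 9 with 1 left out. In females 435 genes were called, against 736 with DESeq2, 1562 with quality weights and 986 without the pair. A fit on the 6 female libraries called 905 of 14365 tested genes, and 155 to 1176 were called when 1 library was left out. Of the 8 genes in females, 0 were called, against 2 with DESeq2 and 3 each with quality weights, the fit on females alone and the fit without the pair (0 to 3 with 1 library left out). In males 321 genes were called, against 647, 693 and 698 with DESeq2, quality weights and without the pair. A fit on the 6 male libraries called 71 of 14332 tested genes, and 137 to 601 were called with 1 library left out. Of the 8 genes in males, 1 was called without the pair (Kcnk1) and 0 otherwise. Between the sexes in sham, DESeq2 called 11 genes against 6, and 6 to 8 were called with 1 library left out.

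Same-numbered SNI and sham libraries of a sex did not deviate together, with correlations of -0.043 to 0.082 over genes, and not every library correlated best with its own number, so the numbers were not taken as pairs. With a replicate block, 0 of the 8 genes were called for injury averaged over the sexes (Kcnk1 at -0.55, adjusted p = 0.0538). The block also ended the calls of Kcnip4 and Kcnh7 (adjusted p = 0.0684 and 0.0501) and left 682 genes in all. The block left 218 genes in females and 165 in males.

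Some estimates changed sign. With quality weights, Kcnd1 was at -0.013 for the interaction and 0.045 between the sexes in sham. Without the pair, Kcnh2 in females was at -0.12, the interactions of Kcnk1 and Kcnd1 were -0.039 and -0.085, and their differences between the sexes in sham were 0.083 and 0.10. With 1 library left out, the change of Kcnh2 in females ran from -0.13 to 0.25, that of Kcnk18 in males from -0.46 to 0.12, that of Kcnn1 in males from -0.35 to 0.035, that of Kcnt1 in males from -0.38 to 0.11 and the interaction of Kcnq3 from -0.48 to 1.26. Between the sexes in sham, Kcnk1 ran from -0.27 to 0.083, Kcnk2 from -0.21 to 0.12, Kcnq3 from -0.60 to 1.14, Kcnd1 from -0.12 to 0.094 and Kcnn1 from -0.28 to 0.084. The cause of these shifts was not tested.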
